A study of Mus musculus with 20 samples.

Results

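Glucose enters a heart muscle cell through facilitative transporters and is broken down to pyruvate by glycolysis, and several of these steps are carried out by paired isoforms encoded by different genes. The 10 genes described here comprise 2 glucose transporters (Slc2a1 and Slc2a4), 2 hexokinases (Hk1 and Hk2), 2 phosphofructokinases (Pfkm and Pfkp), the phosphoglycerate kinase Pgk1, the enolase Eno3 and 2 lactate dehydrogenase subunits (Ldha and Ldhb). They were taken by gene symbol, and all 10 were found among the 55367 genes listed and among the 16598 that passed the expression filter. Eno1, the enolase partner of Eno3, was added to form an isoform ratio.

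The libraries came from C57BL/6J pups, an inbred wild-type strain. Hyperoxic pups breathed 100% oxygen and room-air pups 21% oxygen until postnatal day 4, starting at birth, while the nursing dams were moved daily between the atmospheres. Polyadenylated RNA was sequenced from hyperoxic left atria, room-air left atria, hyperoxic left ventricles and room-air left ventricles, with 5 libraries, each from 1 mouse, in each of the 4 groups. Sex is not given in the labels, and these are whole pieces of a chamber that hold several cell types, so that fewer cells of a type and less RNA per cell cannot be told apart.

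In the fetal and newborn heart glycolysis and lactate supply much of the energy, and after birth heart muscle turns towards fatty acid oxidation. Slc2a1 encodes GLUT1, the transporter that serves basal uptake, and Slc2a4 encodes GLUT4, which insulin and contraction bring to the cell surface. Slc2a1, Hk2, Pgk1 and Ldha are known targets of HIF-1, a transcription factor that is stabilized when oxygen is low and binds DNA at a short core, ACGTG or GCGTG. Lactate dehydrogenase is a tetramer in which the Ldha subunit favours lactate formation and the Ldhb subunit, abundant in heart, favours the use of lactate.

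The bases just before the start sites are shown for Slc2a1, Hk2, Ldha and Ldhb, since the largest hyperoxia differences among the members and the subunit ratio discussed later concern these genes. Each sequence is the 250 bases before a RefSeq start (GRCm38.p6, 5′ to 3′ on the gene's strand), and capitals mark ACGTG or GCGTG on either strand.
Slc2a1, chr4:119108495-119108744, plus strand: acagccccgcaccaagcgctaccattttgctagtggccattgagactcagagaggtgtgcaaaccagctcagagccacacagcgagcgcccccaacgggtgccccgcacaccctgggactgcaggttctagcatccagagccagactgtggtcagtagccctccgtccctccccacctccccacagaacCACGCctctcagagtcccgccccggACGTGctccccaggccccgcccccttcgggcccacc
Hk2, chr6:82774455-82774704, minus strand: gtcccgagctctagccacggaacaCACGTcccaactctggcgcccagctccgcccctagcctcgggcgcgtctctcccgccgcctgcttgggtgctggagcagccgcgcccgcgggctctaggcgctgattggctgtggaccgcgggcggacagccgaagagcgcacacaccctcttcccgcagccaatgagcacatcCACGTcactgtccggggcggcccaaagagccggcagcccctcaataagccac
Ldha upstream start, chr7:46845554-46845803, plus strand: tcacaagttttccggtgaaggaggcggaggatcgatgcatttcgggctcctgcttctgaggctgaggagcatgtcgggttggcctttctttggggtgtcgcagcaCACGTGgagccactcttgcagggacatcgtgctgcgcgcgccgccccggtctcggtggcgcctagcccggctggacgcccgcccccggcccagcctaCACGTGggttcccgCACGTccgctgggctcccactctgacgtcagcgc
Ldha downstream start, chr7:46846832-46847081, plus strand: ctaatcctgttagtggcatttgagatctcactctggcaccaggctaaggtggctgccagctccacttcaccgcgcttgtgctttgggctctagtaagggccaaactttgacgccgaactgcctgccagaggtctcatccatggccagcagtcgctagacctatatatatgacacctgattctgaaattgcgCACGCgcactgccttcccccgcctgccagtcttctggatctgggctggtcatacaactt
Ldhb, chr6:142507958-142508207, minus strand: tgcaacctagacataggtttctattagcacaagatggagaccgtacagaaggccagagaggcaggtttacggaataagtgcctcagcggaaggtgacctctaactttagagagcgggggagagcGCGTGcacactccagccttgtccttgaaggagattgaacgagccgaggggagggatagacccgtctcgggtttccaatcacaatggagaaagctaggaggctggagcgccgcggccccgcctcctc

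Before the upstream Ldha start, 5 matches to ACGTG were found, counting both strands. They include 2 copies of CACGTG, which reads the same on both strands and so counts on each. Slc2a1 held 1 match to ACGTG and 1 to GCGTG, Hk2 held 2 to ACGTG, and Ldhb held 1 to GCGTG. Start sites were matched by symbol for 9 of the 10 members, with 14 entries, and 12 of these entries held ACGTG or GCGTG, against 38.6% of all 32851 entries of this length. ACGTG alone was in 16.6% of all entries, GCGTG in 28.2% and CACGTG in 6.02%. A match describes these letters only, and some entries of a gene overlap each other.

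Total counts over genes were 26510081 to 38244117 per library, of which the 10 members took 0.247% to 0.478%. All 10 room-air libraries had more Y-linked than Xist reads, and among the hyperoxic libraries this held for atrium 2 and ventricles 2 and 6 only, so that sex and oxygen cannot be fully told apart. These 3 hyperoxic libraries held 7.51, 13.2 and 21.7 CPM of Xist, against 0 to 1.05 CPM in room-air libraries. Hyperoxic atria 1 and 3 and ventricle 1 held 5.04, 3.52 and 3.02 CPM of Y-linked reads beside 750 to 831 CPM of Xist. The cause of these mixed signals was not tested. In 3 libraries, called tilted here, short transcripts took a much larger share than in the mean of their chamber. Each gene's log2 CPM was taken as a deviation from its chamber mean over both oxygen levels. This deviation was regressed on the log2 length of the gene's exons. The slope was -0.289 for hyperoxic atrium 2, -0.283 for hyperoxic atrium 4 and -0.22 for room-air ventricle 4, and in the other 17 libraries it lay between -0.0691 and 0.133. Room-air ventricles 1, 2 and 5 also had negative slopes (-0.0674, -0.0691 and -0.0118). The slope lay between 0.0361 and 0.0963 in hyperoxic ventricles and between -0.22 and 0.0243 in room-air ventricles, with no overlap. Slope and oxygen can thus not be fully told apart in the ventricle, and the slope comes from the same counts. The atrial light chain Myl7 was at 2.66 to 128 CPM in hyperoxic ventricles and 19.5 to 530 CPM in room-air ventricles. Myl2, the light chain of ventricular myosin, reached 328 CPM in room-air atrium 1, where the other 4 room-air atria had 7.42 to 15 CPM. The chamber labels matched the markers: the 6 atrial markers summed to 26040 to 50300 CPM in hyperoxic atria and 17970 to 23160 CPM in room-air atria, against 235 to 852 CPM in hyperoxic ventricles and 1036 to 1952 CPM in room-air ventricles.

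Compared per length, as CPM per kilobase of coding-transcript exons, the enolase Eno3 and the lactate dehydrogenase subunit Ldhb had the highest levels in every group. Eno3 averaged 435 ± 143 in hyperoxic atria, 362 ± 30.1 in room-air atria, 818 ± 56.4 in hyperoxic ventricles and 932 ± 209 in room-air ventricles (CPM per kilobase, SD, n = 5 each). Ldha came next in all 4 groups, with 234 ± 33.2 in hyperoxic atria, 304 ± 31.5 in room-air atria, 411 ± 32.8 in hyperoxic ventricles and 533 ± 57.6 in room-air ventricles on the same scale. Pfkm and then Pgk1 followed, then Hk1 and Slc2a4, then Pfkp and Hk2. Slc2a1 was the lowest member in every group, at 9.47 ± 0.879 in hyperoxic atria, 5.86 ± 0.618 in room-air atria, 5.95 ± 1.45 in hyperoxic ventricles and 4.96 ± 0.3 in room-air ventricles (CPM per kilobase). Neighbours in this order whose libraries overlapped were Eno3 and Ldhb, and Hk1 and Slc2a4, in all 4 groups, Ldhb and Ldha in room-air atria, and Pfkm and Pgk1 in hyperoxic atria. All other neighbours stood apart in every library of the group.

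**Figure D1:**
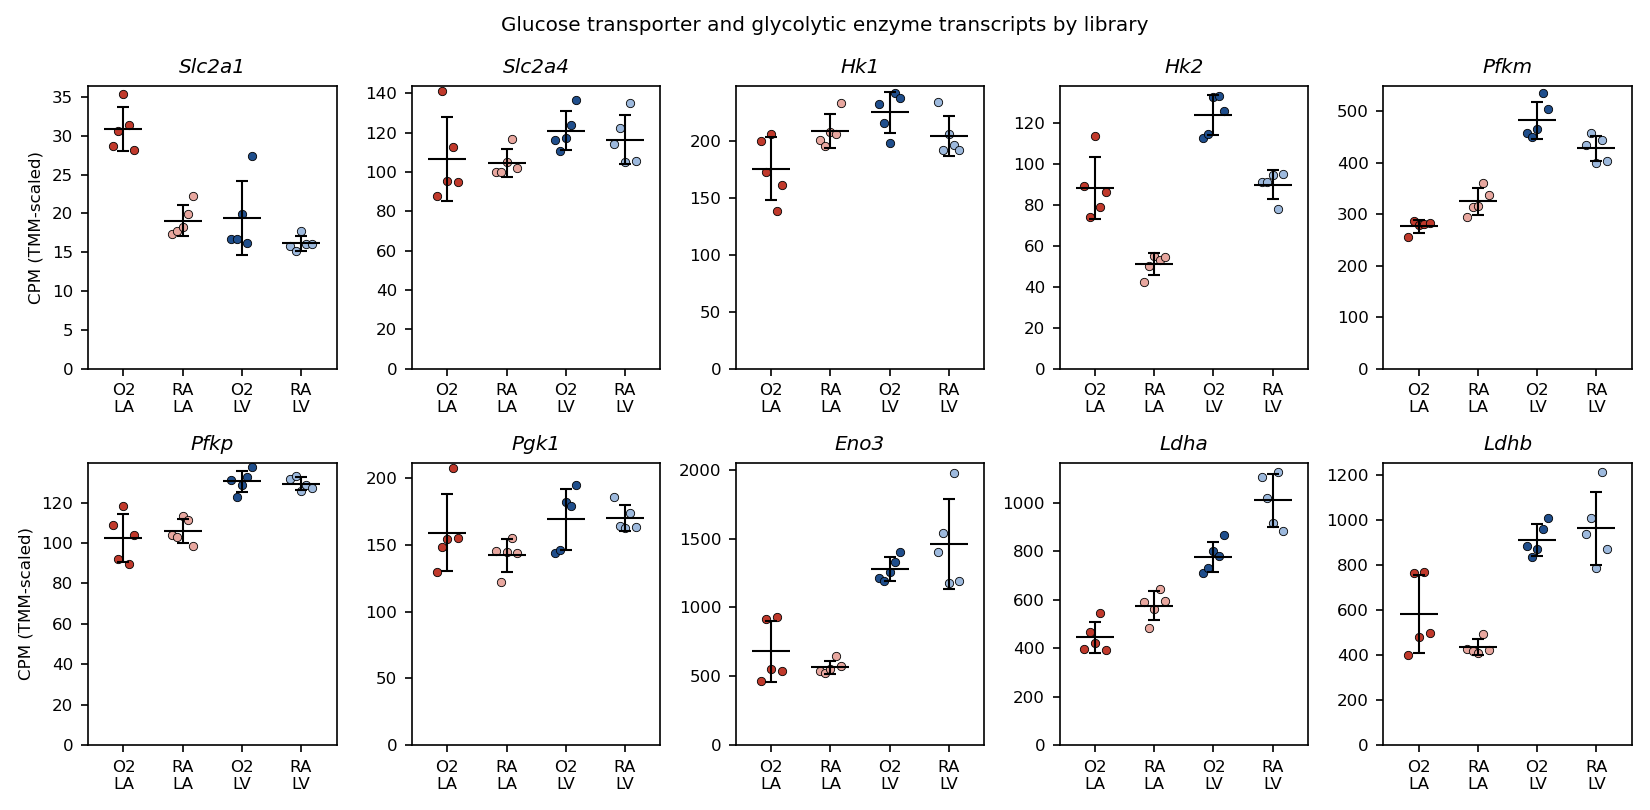
Counts scaled to library size (CPM, axis from 0) of the 10 members in hyperoxic left atria (O2 LA), room-air left atria (RA LA), hyperoxic left ventricles (O2 LV) and room-air left ventricles (RA LV). Each point is 1 library, the horizontal line is the mean and the bar the SD (n = 5 per group); Slc2a1 in hyperoxic atria (28.2 to 35.4 CPM) lies above all room-air atria (17.4 to 22.2 CPM), and Hk2 is higher in the hyperoxic group of both chambers.

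In hyperoxic left atria the basal transporter Slc2a1, the hexokinase Hk2 and the subunit Ldhb were called higher than in room-air left atria. The hexokinase Hk1, the phosphofructokinase Pfkm and the subunit Ldha were called lower. Of 32 other settings tried, the call was kept under 32 for Slc2a1 and Hk2, 30 for Ldha, 24 for Pfkm, 23 for Ldhb and 8 for Hk1. Slc2a4, Pfkp, Pgk1 and Eno3 did not pass. The test was edgeR's quasi-likelihood F-test with Benjamini-Hochberg adjustment over 16598 genes, with a threshold of 0.05, and 6 of 10 members passed it against 43.9% of all genes (19.7% called higher and 24.2% lower). The median log2 difference was 0.09 over the members and -0.06 over all genes tested. With nearly as large a share of all genes called, the count of members called in this chamber is no result about the members as a set.

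Slc2a1 (chromosome 4, 119108711 to 119137983, GRCm38) was at 28.7, 30.6, 35.4, 31.4 and 28.2 CPM in hyperoxic atria 1 to 5, against 17.4, 17.7, 18.2, 19.9 and 22.2 CPM in room-air atria 1 to 5. Every hyperoxic atrium lay above every room-air atrium, as for 3 of 10 members in 1 direction or the other (Slc2a1, Hk2 and Pfkm) and 32.9% of all genes. The level was 1.62-fold higher, a log2 difference of 0.69 ± 0.12 (SE; edgeR adjusted p = 8.8e-05), and this call held under all 32 other settings tried. Slc2a4, the insulin-responsive transporter (chromosome 11, 69942539 to 69948188), averaged 106 ± 21.3 CPM in hyperoxic atria and 105 ± 7.13 CPM in room-air atria (SD, n = 5 each). Its log2 difference was 0.02 ± 0.11 (edgeR adjusted p = 0.88). The highest of the hyperoxic values, 141 CPM, belonged to hyperoxic atrium 2, one of the libraries tilted towards short transcripts, and with the length slope as a covariate the log2 difference was -0.23 (edgeR adjusted p = 0.015).

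Hk2 (chromosome 6, 82725025 to 82774454), the hexokinase that is prominent in insulin-responsive muscle and binds mitochondria, was at 89.1, 74.1, 114, 78.7 and 86.2 CPM in hyperoxic atria 1 to 5. In room-air atria 1 to 5 it was at 42.2, 49.9, 55.2, 52.9 and 54.6 CPM, and the groups did not overlap. The log2 difference of 0.79 ± 0.10 was the largest of the members (edgeR adjusted p = 2.6e-06) and passed under all 32 other settings. Hk1, the constitutive hexokinase (chromosome 10, 62268855 to 62379908), averaged 176 ± 27.8 CPM in hyperoxic atria and 209 ± 14.8 CPM in room-air atria (SD, n = 5 each), and the groups overlapped. Its log2 difference of -0.25 ± 0.10 was at the edge of the threshold (edgeR adjusted p = 0.047), and the call was kept under 8 of 32 other settings. Leaving out 1 library ended it (adjusted p between 0.052 and 0.17) for hyperoxic atria 2, 4 and 5, room-air atria 1, 3, 4 and 5, hyperoxic ventricles 1, 2, 5 and 6 and room-air ventricles 2, 3 and 5.

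Pfkm (chromosome 15, 98092589 to 98132451), the muscle form of the enzyme that commits fructose 6-phosphate to glycolysis, was at 255, 287, 278, 281 and 282 CPM in hyperoxic atria 1 to 5. Room-air atria 1 to 5 had 295, 314, 315, 361 and 338 CPM, all above the hyperoxic values. The log2 difference was -0.23 ± 0.08 (edgeR adjusted p = 0.022). It passed under 24 of 32 other settings, and lost the call without hyperoxic atrium 1 (adjusted p = 0.052), room-air atrium 4 (0.069) or hyperoxic ventricle 5 (0.12). Pfkp, the platelet-type isoform (chromosome 13, 6579768 to 6648777), averaged 103 ± 12 CPM in hyperoxic atria and 106 ± 6.01 CPM in room-air atria, with a log2 difference of -0.05 ± 0.07. Its exons share 748 bases with Pitrm1 on the opposite strand, and whether the counting used strand is not stated, so reads of the pair may not be told apart.

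Ldha (chromosome 7, 46841475 to 46855627) was at 397, 465, 423, 544 and 391 CPM in hyperoxic atria 1 to 5, against 590, 483, 562, 645 and 596 CPM in room-air atria 1 to 5. The groups overlapped only through hyperoxic atrium 4 and room-air atrium 2. Its log2 difference was -0.37 ± 0.11 (edgeR adjusted p = 0.0075), and it passed under 30 of 32 other settings. Ldhb (chromosome 6, 142490249 to 142507957) was at 399, 764, 479, 767 and 499 CPM in hyperoxic atria 1 to 5, against 427, 416, 408, 495 and 422 CPM in room-air atria 1 to 5. The 2 highest values belonged to hyperoxic atria 2 and 4, the libraries tilted towards short transcripts. The log2 difference of 0.42 ± 0.15 (edgeR adjusted p = 0.03) became 0.08 without the 3 tilted libraries (adjusted p = 0.54). It also lost the call without hyperoxic atrium 2 or hyperoxic atrium 4 (adjusted p = 0.11 each), or without room-air atrium 1, 2, 3 or 5 (0.053 to 0.064).

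Eno3, the muscle enolase (chromosome 11, 70657202 to 70662513), showed the same pattern as Ldhb across libraries, with 465, 915, 554, 930 and 540 CPM in hyperoxic atria 1 to 5. Room-air atria ranged from 525 to 644 CPM, and the log2 difference was 0.26 ± 0.17 (edgeR adjusted p = 0.22). Once the length slope was in the fit it turned to -0.23 and passed (adjusted p = 0.025), and without the 3 tilted libraries it was -0.12 (adjusted p = 0.35). Pgk1, which makes the first ATP of glycolysis (chromosome X, 106187100 to 106203699), averaged 159 ± 28.9 CPM in hyperoxic atria and 142 ± 12.3 CPM in room-air atria, a log2 difference of 0.16 ± 0.11 (edgeR adjusted p = 0.24).

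The 1 hyperoxic atrium with more Y-linked than Xist reads was number 2, which is also tilted towards short transcripts (slope -0.289). It had 30.6 CPM of Slc2a1 and 74.1 CPM of Hk2, both above all 5 room-air atria, and 465 CPM of Ldha, below all 5. The part of sex was not tested with this 1 library. With Y-linked minus Xist reads as a covariate Slc2a1 and Hk2 kept their atrial calls (log2 differences 0.90 and 0.62, edgeR adjusted p = 0.0013 and 0.006), while Ldha (-0.32, adjusted p = 0.16) and Pfkm (-0.24, adjusted p = 0.15) lost theirs. The fibroblast markers also differed in this chamber: their 6 genes summed to 4395 to 6167 CPM in hyperoxic atria and 9009 to 10140 CPM in room-air atria, with 5 of 6 lower and 1 higher. The 7 endothelial markers summed to 801 to 970 CPM in hyperoxic atria and 1072 to 1252 CPM in room-air atria, with 6 of 7 lower and 1 higher. The 6 smooth muscle and pericyte markers summed to 566 to 752 CPM in hyperoxic atria and 759 to 883 CPM in room-air atria, with 4 of 6 lower and 1 higher. The 6 macrophage markers summed to 165 to 224 CPM in hyperoxic atria and 127 to 141 CPM in room-air atria, and 4 of 6 rose. The 8 cardiomyocyte markers summed to 20470 to 31100 CPM in hyperoxic atria and 23480 to 30170 CPM in room-air atria, with 3 of 8 lower and 0 higher. Of all genes, 24.2% were called lower and 19.7% higher in this chamber. No marker of these 5 lists was at 0 in either group, and the part that these cell types play in the members' differences was not tested.

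**Figure D2:**
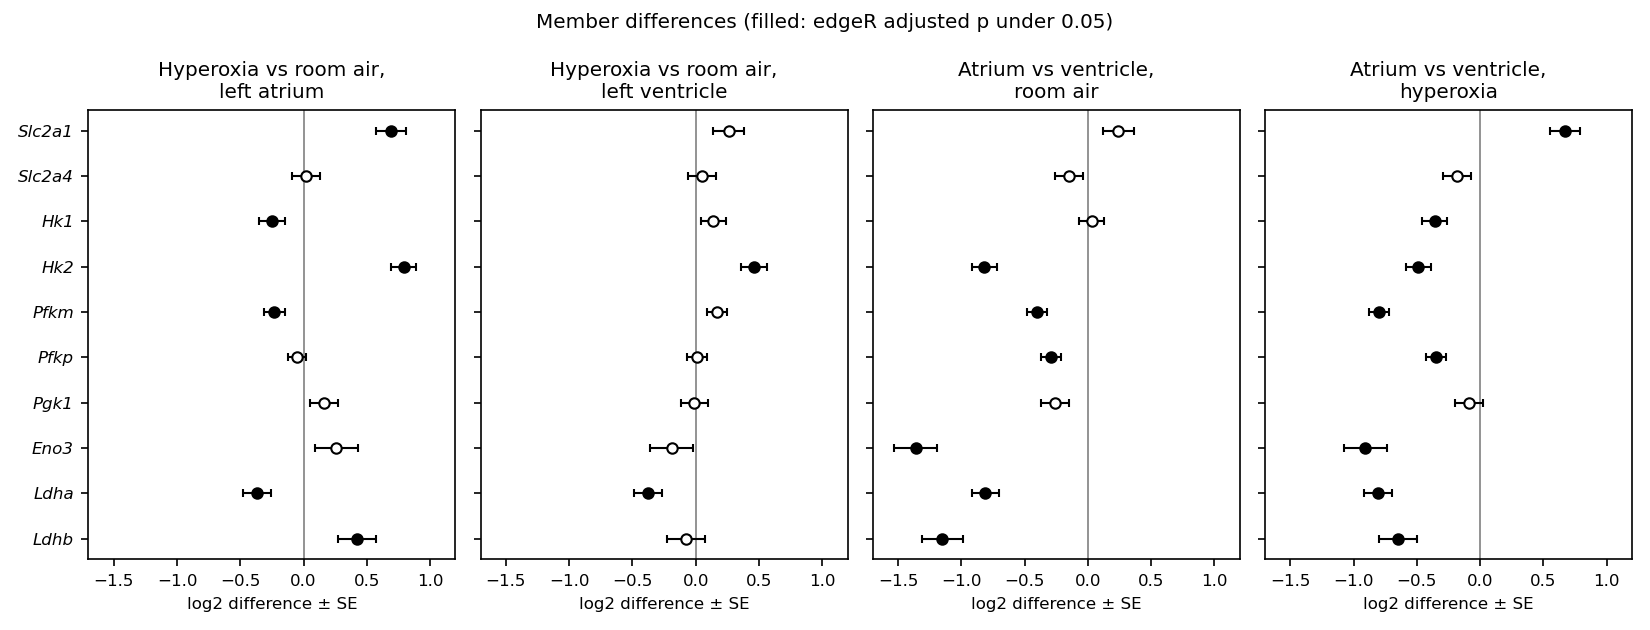
Log2 differences of the 10 members with their SE for hyperoxia against room air in each chamber and for atrium against ventricle at each oxygen level; filled points passed the edgeR test (adjusted p under 0.05). Hk2 rose and Ldha fell with hyperoxia in both chambers, and most members are left of 0 in both chamber comparisons.

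In the left ventricle 2 of 10 members passed, against 10.9% of all genes: Hk2 rose (5.64% of all genes were called higher) and Ldha fell (5.28% were called lower). The median log2 difference was 0.03 over the members and -0.01 over all genes tested. Hk2 was at 113, 114, 132, 133 and 126 CPM in hyperoxic ventricles 1, 2, 4, 5 and 6, against 91, 91.1, 94.7, 77.8 and 95.1 CPM in room-air ventricles 1 to 5. The groups did not overlap, and the log2 difference was 0.46 ± 0.10 (edgeR adjusted p = 0.0092). It passed under 29 of 33 other settings. The call was lost with Y-linked minus Xist reads as a covariate (log2 difference 0.32, adjusted p = 0.49) and without the 3 ventricular libraries that lay apart (0.38, adjusted p = 0.13).

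Ldha was at 709, 730, 801, 782 and 867 CPM in hyperoxic ventricles 1, 2, 4, 5 and 6, against 1105, 1018, 917, 1129 and 885 CPM in room-air ventricles 1 to 5. Every hyperoxic library lay below every room-air one, so that 2 of 10 members (Hk2 and Ldha) had no overlap between the groups, against 12.4% of all genes. The log2 difference was -0.38 ± 0.11 (edgeR adjusted p = 0.029). It passed under 21 of 33 other settings, and leaving out hyperoxic ventricle 1, 2, 4 or 5 or room-air ventricle 1, 2 or 4 raised the adjusted p to between 0.05 and 0.077. The call was also lost after adding the length slope to the fit (-0.22, adjusted p = 0.06), with Y-linked minus Xist reads (-0.34, adjusted p = 0.52) and without the 3 ventricular libraries that lay apart (-0.28, adjusted p = 0.26). Hyperoxic ventricles 2 and 6, which had more Y-linked than Xist reads like all room-air ventricles, had 114 and 126 CPM of Hk2 and 730 and 867 CPM of Ldha. For both genes these values lay on the hyperoxic side of all 5 room-air ventricles. The part of sex was not tested with these 2 libraries.

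The other members did not pass in the ventricle. Slc2a1 averaged 19.4 ± 4.72 CPM in hyperoxic ventricles and 16.2 ± 0.978 CPM in room-air ventricles (SD, n = 5 each), with a log2 difference of 0.26 ± 0.12 (edgeR adjusted p = 0.16). Its highest value, 27.4 CPM, came from hyperoxic ventricle 6, while the other 4 hyperoxic ventricles lay between 16.2 and 19.9 CPM. Pfkm averaged 482 ± 36.2 CPM in hyperoxic ventricles and 428 ± 25.2 CPM in room-air ventricles (log2 difference 0.17 ± 0.08, edgeR adjusted p = 0.15). The log2 differences of Slc2a4, Hk1, Pfkp, Pgk1, Eno3 and Ldhb lay between -0.19 and 0.14. When the slope on length was included, Pfkm (0.22, adjusted p = 0.041), Slc2a4 (0.25, adjusted p = 0.02) and Ldhb (0.24, adjusted p = 0.025) passed as higher. The slopes of hyperoxic and room-air ventricles did not overlap, so that fit cannot fully tell slope and oxygen apart. The 6 atrial markers summed to 235 to 852 CPM in hyperoxic ventricles and 1036 to 1952 CPM in room-air ventricles. Of these 6 genes, 2 were called lower and 1 higher. With ventricular Myl7 as a covariate neither Hk2 nor Ldha passed, at log2 differences of 0.40 and -0.47 (edgeR adjusted p = 0.18 and 0.13). The endothelial markers summed to 1426 to 1619 CPM in hyperoxic ventricles and 1719 to 1972 CPM in room-air ventricles, and 3 of 7 fell. The 8 erythroid markers summed to 908 to 1272 CPM in hyperoxic ventricles and 1810 to 2861 CPM in room-air ventricles, and 2 of the 7 tested fell. The 6 smooth muscle and pericyte markers summed to 643 to 774 CPM in hyperoxic ventricles and 785 to 959 CPM in room-air ventricles, and 1 of 6 fell. Of all genes, 5.28% were called lower and 5.64% higher in this chamber. The part of these markers' cell types in the members' differences was not tested.

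Whether the atrium and the ventricle responded differently was tested as the atrial minus the ventricular log2 difference. Pfkm (-0.40 ± 0.11, edgeR adjusted p = 0.0081) and Hk1 (-0.39 ± 0.14, adjusted p = 0.035) passed, which makes 2 of 10 members against 36.5% of all genes (17% called higher and 19.5% lower). For Pfkm the atrial and ventricular log2 differences were -0.23 and 0.17, and the call held under 31 of 33 other settings, but not without hyperoxic ventricle 5 (adjusted p = 0.058). For Hk1 they were -0.25 and 0.14, and the call held under 14 of 33. It was lost, at an adjusted p of 0.05 to 0.13, without hyperoxic atrium 2, 4 or 5, room-air atrium 3 or 5, hyperoxic ventricle 1, 5 or 6, or room-air ventricle 2, 4 or 5. Slc2a1 (0.43 ± 0.17, adjusted p = 0.055), Hk2 (0.33 ± 0.15, adjusted p = 0.078) and Ldhb (0.50 ± 0.22, adjusted p = 0.073) missed the threshold. Slc2a1 passed without hyperoxic atrium 5 (0.047), room-air atrium 5 (0.038) or hyperoxic ventricle 6 (0.0028). Hk2 passed without hyperoxic atrium 2 (0.041) or hyperoxic ventricle 5 (0.034). Ldhb passed without hyperoxic atrium 1 (0.018), hyperoxic atrium 3 (0.049) or room-air ventricle 3 (0.048). For Ldha the difference between the responses was 0.00 ± 0.15 (adjusted p = 0.98), and it became -0.18 without the 3 tilted libraries (adjusted p = 0.35), -0.34 with the length slope (0.066) and -0.38 with both covariates (0.056). With the length slope Eno3 (-0.41, adjusted p = 0.022) and Slc2a4 (-0.48, adjusted p = 0.0042) passed, though slope and oxygen cannot be fully told apart in the ventricle.

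Ratios of paired isoforms within a library do not depend on how libraries are scaled. A tilt by transcript length does not cancel in them where the isoforms differ in length, and no covariate for length or sex entered their tests. Differences of mean log2 ratios were tested by two-sided exact permutation tests over libraries with adjustment over the 25 tests of 5 ratios in 5 comparisons, and the smallest p that 5 against 5 libraries allow is 0.0079. Ldhb/Ldha was 1.005, 1.64, 1.13, 1.41 and 1.27 in hyperoxic atria 1 to 5, against 0.724, 0.861, 0.726, 0.767 and 0.708 in room-air atria 1 to 5. Each hyperoxic atrium had more reads of Ldhb than of Ldha, and each room-air atrium had fewer. The highest values, 1.64 and 1.41, belonged to the tilted hyperoxic atria 2 and 4. Ldhb has 1570 exon bases and Ldha 3310, so a tilt by length does not cancel in this ratio. The ratio rose by 0.75 ± 0.13 on the log2 scale (SE; exact adjusted p = 0.02). In the ventricle it averaged 1.17 ± 0.0652 in hyperoxic and 0.951 ± 0.0963 in room-air libraries (SD, n = 5 each), with no overlap (log2 difference 0.31 ± 0.07, exact adjusted p = 0.02).

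Hk2/Hk1 was 0.446, 0.427, 0.55, 0.568 and 0.533 in hyperoxic atria 1 to 5, against 0.21, 0.255, 0.265, 0.257 and 0.234 in room-air atria 1 to 5. The ratio was 2.06-fold higher in hyperoxic atria, with no overlap (log2 difference 1.04 ± 0.10, exact adjusted p = 0.02). In the ventricle it averaged 0.553 ± 0.0687 in hyperoxic and 0.442 ± 0.0473 in room-air libraries (SD, n = 5 each), and the difference passed (0.32 ± 0.10, exact adjusted p = 0.029). Without hyperoxic ventricle 4 the exact adjusted p was 0.052. Slc2a4/Slc2a1 fell in the atrium, averaging 3.47 ± 0.717 in hyperoxic and 5.52 ± 0.534 in room-air libraries (log2 difference -0.69 ± 0.14, exact permutation, adjusted p = 0.029). The ventricular values, 6.41 ± 1.02 in hyperoxic and 7.24 ± 1.03 in room-air libraries, did not differ past the threshold (-0.18 ± 0.14, exact permutation, adjusted p = 0.26).

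Pfkm/Pfkp averaged 3.69 ± 0.204 in hyperoxic ventricles and 3.30 ± 0.132 in room-air ventricles, with no overlap (log2 difference 0.16 ± 0.04, exact permutation, adjusted p = 0.02). In the atrium it averaged 2.73 ± 0.391 in hyperoxic and 3.07 ± 0.27 in room-air libraries and did not pass (-0.18 ± 0.11, adjusted p = 0.18 in the exact permutation test). Without the 3 tilted libraries the atrial difference was -0.31 and passed (exact permutation, adjusted p = 0.05). Eno3/Eno1 averaged 2.27 ± 0.372 in hyperoxic atria and 2.75 ± 0.145 in room-air atria (-0.29 ± 0.11, exact permutation, adjusted p = 0.062, with 0.037 and 0.026 without hyperoxic atrium 2 or 4). The atrial minus ventricular log2 difference was 0.72 ± 0.15 for Hk2/Hk1, -0.51 ± 0.20 for Slc2a4/Slc2a1, 0.45 ± 0.15 for Ldhb/Ldha, -0.34 ± 0.12 for Pfkm/Pfkp and -0.43 ± 0.16 for Eno3/Eno1 (SE). Permuting oxygen labels within each chamber gave adjusted p-values of 0.096, 0.13, 0.18, 0.02 and 0.029 in the same order. The null of that permutation is no oxygen effect in either chamber, so it does not test whether the chambers responded alike, and no call is made from it. For Eno3/Eno1 its adjusted p was 0.052 without hyperoxic ventricle 4, 0.058 without room-air ventricle 1 and 0.056 without room-air ventricle 3. When atria and ventricles of the same number and oxygen level were taken as pairs, the exact adjusted p of the difference was 0.079 for Hk2/Hk1, Slc2a4/Slc2a1 and Pfkm/Pfkp and 0.095 for Ldhb/Ldha and Eno3/Eno1. The unadjusted exact p was 0.0079 for Hk2/Hk1, 0.016 for Slc2a4/Slc2a1 and Pfkm/Pfkp and 0.032 for Ldhb/Ldha and Eno3/Eno1. The adjustment also covered paired chamber tests that could not pass with 5 or 4 pairs, so no call is made from these adjusted values. Eno1 itself, the broadly expressed enolase, rose in the atrium to 294 ± 52.4 CPM in hyperoxic libraries, against 206 ± 14.5 CPM in room-air libraries (log2 difference 0.52 ± 0.11, edgeR adjusted p = 0.00094). With the length slope and Y-linked minus Xist reads as covariates it was 0.36 and lost the call (edgeR adjusted p = 0.064).

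**Figure D3:**
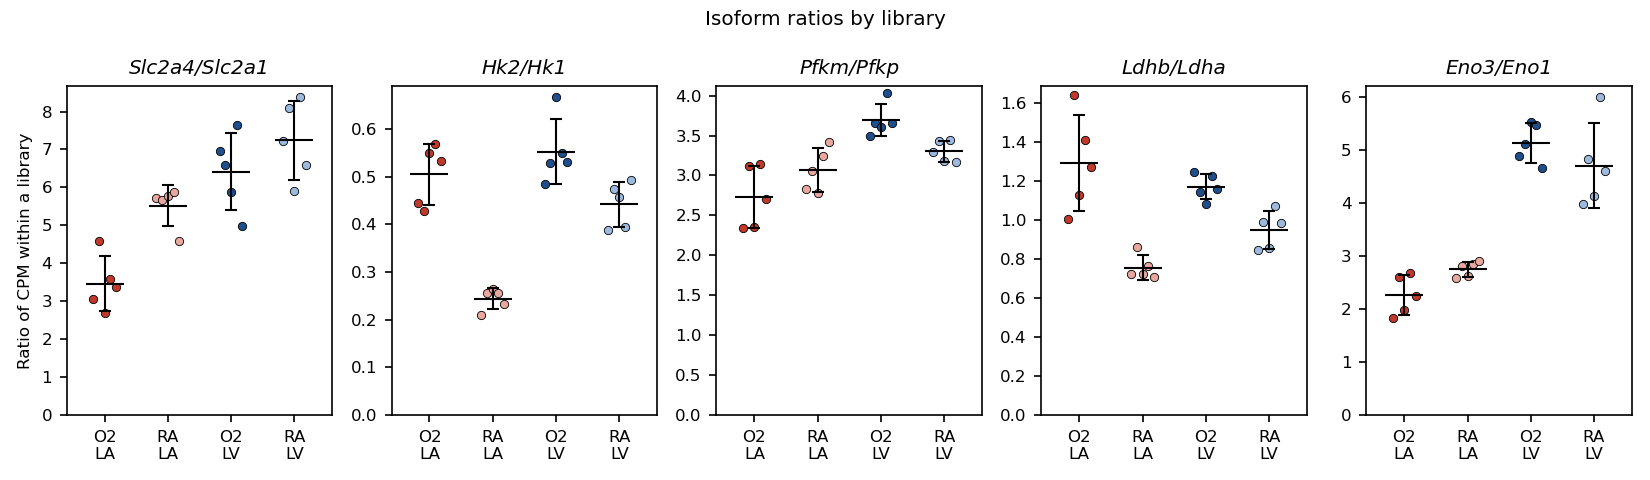
Ratio of CPM of paired isoforms within each library (axis from 0) in hyperoxic left atria (O2 LA), room-air left atria (RA LA), hyperoxic left ventricles (O2 LV) and room-air left ventricles (RA LV), with the mean and SD of 5 libraries. Ldhb/Ldha and Hk2/Hk1 are higher in the hyperoxic than in the room-air group of both chambers, while Slc2a4/Slc2a1 in the atrium is lower after hyperoxia.

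Between the chambers most members were lower in the atrium. In room air 6 of 10 members passed, all lower in the atrium, against 55% of all genes called in either direction (28.7% higher and 26.3% lower). Their log2 differences were -1.36 ± 0.17 for Eno3, -1.15 ± 0.16 for Ldhb, -0.82 ± 0.10 for Hk2, -0.81 ± 0.11 for Ldha, -0.40 ± 0.08 for Pfkm and -0.29 ± 0.08 for Pfkp (SE; edgeR adjusted p between 8e-07 and 0.0026). The median was -0.34 over the members and 0.03 over all genes tested. In room air Eno3 averaged 567 ± 47.1 CPM in atria and 1460 ± 327 CPM in ventricles (SD, n = 5 each), and Ldhb averaged 434 ± 35.1 CPM in atria and 963 ± 162 CPM in ventricles. Atria and ventricles did not overlap for either gene, nor for 7 of 10 members in all (the 6 called and Pgk1), against 46.5% of all genes. Slc2a1, Slc2a4, Hk1 and Pgk1 did not pass, and Pgk1 lay next to the threshold at -0.26 ± 0.11 (edgeR adjusted p = 0.052). It passed without hyperoxic atrium 1 or 4, room-air atrium 4, or hyperoxic ventricle 1, 2 or 5, at an adjusted p of 0.014 to 0.05.

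After hyperoxia 8 of 10 members differed between the chambers, against 48.8% of all genes (25.2% called higher and 23.6% lower). Slc2a1 was higher in the atrium (0.67 ± 0.12, edgeR adjusted p = 8.9e-05), and Hk1, Hk2, Pfkm, Pfkp, Eno3, Ldha and Ldhb were lower, by log2 differences of -0.91 to -0.35. In hyperoxic hearts Slc2a1 averaged 30.9 ± 2.86 CPM in atria and 19.4 ± 4.72 CPM in ventricles, and all 5 atria lay above all 5 ventricles. The chambers did not overlap for 6 of 10 members, against 32.9% of all genes. The room-air means were 19.1 ± 2.01 CPM in atria and 16.2 ± 0.978 CPM in ventricles (log2 difference 0.24 ± 0.12, edgeR adjusted p = 0.1, and 0.035 without hyperoxic ventricle 6). Hk2/Hk1 was lower in the atrium in room air (-0.86 ± 0.09, exact permutation, adjusted p = 0.02) and did not differ past the threshold after hyperoxia (-0.13 ± 0.11, exact permutation, adjusted p = 0.29). These chamber comparisons share their libraries with the hyperoxia comparisons. The 8 cardiomyocyte markers summed in room air to 23480 to 30170 CPM in atria and 33610 to 48740 CPM in ventricles. In atria 6 of 8 were called lower and 0 higher, against 26.3% and 28.7% of all genes. After hyperoxia 7 of 8 were lower and 0 higher, against 23.6% and 25.2%. The 6 fibroblast markers summed in room air to 9009 to 10140 CPM in atria and 3106 to 4584 CPM in ventricles, with 6 of 6 higher in atria. There 5 of 6 macrophage markers were higher and 0 lower, 4 of 5 epicardial markers higher and 1 lower, and 4 of 7 endothelial markers lower and 0 higher. The part of these markers' cell types in the members' chamber differences was not tested.

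The genes around these steps were described from 9 lists with 116 genes, of which 106 were measured. Their counts stand beside 43.9% of all genes called in the atrium and 10.9% in the ventricle, with medians of -0.06 and -0.01 over all genes, and a count near these shares is no result about a list. Among the 16 other glycolytic enzymes measured, 6 rose and 2 fell in the atrium, with a median log2 difference of 0.11. Pfkl, the liver-type phosphofructokinase, fell to 59.7 CPM in hyperoxic atria, against 99.1 CPM in room-air atria (-0.73 ± 0.09, edgeR adjusted p = 7.7e-07). Eno2, the enolase best known from neurons, rose to 10.6 CPM in hyperoxic atria, against 3.40 CPM in room-air atria (1.64 ± 0.20, adjusted p = 9.8e-07). In the ventricle 1 of 16 rose and 2 fell, with a median of -0.27: Eno2 rose (0.89 ± 0.22, adjusted p = 0.015), and the aldolase Aldoa (-0.60 ± 0.12, adjusted p = 0.004) and Gapdh (-0.33 ± 0.09, adjusted p = 0.03) fell. Gapdh lost the call without hyperoxic ventricle 2, 4 or 5 or room-air ventricle 1 or 2 (adjusted p 0.061 to 0.08). DESeq2 called 7 of the 16 lower there and 1 higher. Aldoa moved the other way in the atrium (0.34, adjusted p = 0.025, and 0.085, 0.069 and 0.073 without hyperoxic atrium 2, hyperoxic atrium 4 or room-air atrium 2), and its atrial minus ventricular difference was 0.94 (adjusted p = 0.00027).

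Of the 7 other glucose transporters measured, 1 rose and 2 fell in the atrium (median -0.24), and 0 of 7 passed in the ventricle by edgeR's test or DESeq2, with 1 at an unadjusted p under 0.05. Slc2a12, which encodes GLUT12, fell to 1.11 CPM in hyperoxic atria, against 3.13 CPM in room-air atria (-1.50 ± 0.22, edgeR adjusted p = 1.5e-05). Slc2a8, which encodes GLUT8, fell by 0.36 on the log2 scale (adjusted p = 0.0071) and kept the call under 30 of 32 other settings. The ventricular values with the smallest p were 0.48 for Slc2a13, which encodes a myo-inositol transporter, and -1.20 for Slc2a6, which encodes GLUT6 (adjusted p = 0.16 and 0.3). Of the 6 genes that set fructose bisphosphate levels, 1 rose and 3 fell in the atrium (median -0.32). Tigar, which lowers fructose 2,6-bisphosphate, rose (0.58 ± 0.10, adjusted p = 0.0001), and Pfkfb3, which raises it, fell (-0.60 ± 0.14, adjusted p = 0.0017). Each kept its call under 31 of 32 other settings, with an adjusted p of up to 0.089 for Tigar and 0.66 for Pfkfb3. In the ventricle 0 of 6 passed by edgeR's test or DESeq2, with 1 at an unadjusted p under 0.05, and Tigar had a log2 difference of 0.25 and Fbp2, a fructose bisphosphatase, of -0.20 (edgeR adjusted p = 0.11 and 0.47).

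Of 14 genes of pyruvate oxidation, 7 rose and 2 fell in the atrium (median 0.29), and 1 rose in the ventricle (median 0.21). The kinase Pdk2, which inhibits pyruvate dehydrogenase, fell to 99.2 CPM in hyperoxic atria, against 154 CPM in room-air atria (-0.63 ± 0.10, edgeR adjusted p = 1.9e-05), and Pdhx, a structural subunit of the complex, rose (0.72 ± 0.11, adjusted p = 2.4e-05). The Pdhx call held under 31 of 32 other settings (adjusted p of up to 0.23). In the ventricle the phosphatase Pdp2 rose (0.54 ± 0.16, adjusted p = 0.035, and 0.051 to 0.083 without hyperoxic ventricle 1, 5 or 6 or any 1 room-air ventricle). Pdpr, which encodes a regulatory subunit of pyruvate dehydrogenase phosphatase, had a ventricular log2 difference of 1.32 ± 0.47 (adjusted p = 0.068). Of 5 genes of lactate transport, 2 rose and 1 fell in the atrium (median 0.25), while 2 fell in the ventricle (median -0.42). Slc16a3, which encodes the lactate exporter MCT4, fell in both chambers, to 9.07 CPM in hyperoxic atria against 14.6 CPM in room-air atria and to 5.99 CPM in hyperoxic ventricles, with 11 CPM in room-air ventricles. Its log2 differences were -0.69 ± 0.11 in the atrium and -0.87 ± 0.12 in the ventricle (edgeR adjusted p = 4.5e-05 and 0.00015). The ventricular call held under all 33 other settings and the atrial call under 31 of 32 (adjusted p of up to 0.11). Slc16a1, which encodes MCT1, rose in the atrium (0.85 ± 0.14, adjusted p = 4e-05), as did the transporter chaperone Emb (1.11 ± 0.17, adjusted p = 1.4e-05). The Slc16a1 call held under 31 of 32 other settings (adjusted p of up to 0.23). The chaperone Bsg fell in the ventricle (-0.42 ± 0.12, adjusted p = 0.029), and lost the call without hyperoxic ventricle 2, 4 or 5 or room-air ventricle 1, 2 or 4 (adjusted p 0.052 to 0.082).

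Of 20 glycogen genes, 7 rose and 6 fell in the atrium (median -0.04), and 5 rose and 1 fell in the ventricle (median 0.24). Phkg1, a catalytic subunit of phosphorylase kinase, fell to 5.15 CPM in hyperoxic atria, against 21.2 CPM in room-air atria (-2.04 ± 0.17, edgeR adjusted p = 6.5e-09). The glycogen primer Gyg rose there (0.80 ± 0.11, adjusted p = 7.8e-06). In the ventricle the phosphatase subunit Ppp1r3a rose (0.99 ± 0.20, adjusted p = 0.004). Of 7 pentose phosphate genes, 4 rose in the atrium (median 0.37), among them the isomerase Rpia (0.80 ± 0.15, adjusted p = 0.00018) and the transketolase Tkt (0.46 ± 0.09, adjusted p = 0.00024). The atrial Rpia call held under 31 of 32 other settings (adjusted p of up to 0.17). In the ventricle 0 of 7 passed by edgeR's test, while 3 were lower at an unadjusted p under 0.05 and DESeq2 called 1 lower, with log2 differences of -0.55 for the lactonase Pgls and -0.34 for Rpia (edgeR adjusted p = 0.055 and 0.13).

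Of 14 genes that control glucose uptake, 1 rose and 3 fell in the atrium (median -0.04), and 5 rose in the ventricle (median 0.21). Tbc1d1 and Tbc1d4, which hold GLUT4 inside the cell, fell in the atrium (-0.47 ± 0.09 and -0.41 ± 0.10, edgeR adjusted p = 0.00022 and 0.0024). In the ventricle the AMPK subunit Prkaa2 (0.63 ± 0.11, adjusted p = 0.0022) and the insulin-pathway kinase Akt2 (0.33 ± 0.07, adjusted p = 0.0096) rose. Of 17 transcription regulators, 4 rose and 5 fell in the atrium (median -0.16), and 5 rose in the ventricle (median 0.20). Myc rose to 29.7 CPM in hyperoxic atria, against 13.6 CPM in room-air atria (1.12 ± 0.13, adjusted p = 6.8e-07), and Esrra, a nuclear receptor of oxidative metabolism, rose as well (0.60 ± 0.10, adjusted p = 3.3e-05). In the ventricle the nuclear receptor Esrrb (0.59 ± 0.13, adjusted p = 0.009) and the coactivator Ppargc1a (0.37 ± 0.09, adjusted p = 0.018, and 0.051 without room-air ventricle 2) rose.

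**Figure D4:**
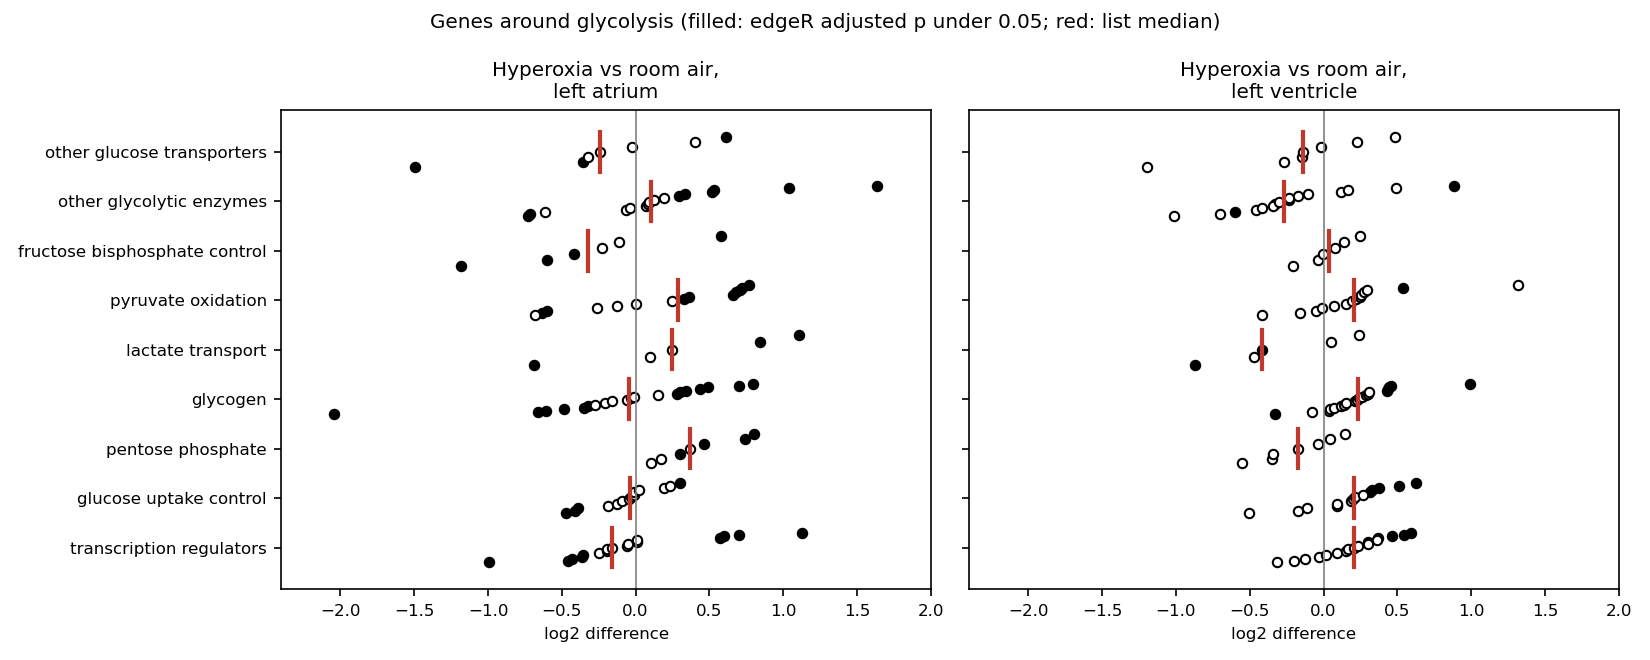
Log2 differences, hyperoxia against room air, of the 106 measured genes of 9 lists around glycolysis, in left atria and in left ventricles; each point is 1 gene, filled where it passed the edgeR test (adjusted p under 0.05), and the red line is the median of the list. In the atrium Phkg1 lies farthest to the left and Eno2 farthest to the right, and fewer points are filled in the ventricle.

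Likeness to other genes was measured as the root mean square difference of centred log2 CPM over the 20 libraries, among 10954 candidate genes, and is a description of levels that share chamber, depth and library. Ldhb was most like the cardiac troponin gene Tnnt2, at 0.0794 against a spread of its own of 0.53. Pfkm was most like Pygm, the muscle glycogen phosphorylase, at 0.0908 against a spread of 0.327. Eno3 was most like Acaa2 (0.123) and Mlycd (0.129), which both act in fatty acid metabolism, with a spread of its own of 0.64. Hk2 was nearest to Cluh (0.16) and Plin4 (0.163) with a spread of 0.481, and Slc2a1 was nearest to Nsun2 (0.158) and Eif3c (0.164) with a spread of 0.38.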

How the data were processed

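Polyadenylated RNA was sequenced in 20 libraries, 5 in each of 4 groups. The authors deposited 1 table per library with whole-number read counts for 55367 gene symbols and no normalization. The submitters' processing notes name GRCm38.p6 as genome build and, among the tools, STAR 2.7.6a, Salmon 1.3.0, featureCounts, Subread 2.0.1 and fastp 0.20.1. Which annotation was counted, and with what strand setting, is not given in the sources used here, although per the labels' protocols the library kit is stranded. The sample labels name a Direct-zol kit for the RNA and the series description an RNeasy kit.

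The counts of the 16598 genes that filterByExpr kept were fitted with edgeR 4.0.16 (R 4.3.3) in 1 robust quasi-likelihood model of all 20 libraries, with TMM scaling and a coefficient for each group. Adjusted p-values are Benjamini-Hochberg over the 16598 genes with a threshold of 0.05. SE were obtained by dividing a log2 difference by the root of its F, and CPM use TMM-scaled library sizes. DESeq2 1.42.0 and other scalings, filters, covariates and left-out libraries were tried as alternatives, and the closing section gives their effect. Isoform ratios were tested with numpy 2.4.6 by exact permutation, and their p-values were adjusted with statsmodels. Positions and lengths are from GENCODE M21, and start-site sequences from RefSeq.

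Total counts ranged from 26510081 to 38244117 per library, and all pairs within a group differed by more than sampling noise (chi-square per degree of freedom of 12.2 or more). The series description gives individual mice, so p-values measure the spread between these mice and their libraries. Genes that share at least 95% of 200 or more bases with a member held at most 0.0196% of its count.

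The members, gene lists, tests and settings were chosen with earlier results of these data known. In the text all members are named, and for each list the 2 genes with the smallest p in each hyperoxia comparison, with Eno1; Slc16a3 in the atrium, Gapdh and the genes nearest in likeness were also within the naming rule, which allows 4 per list. The result of 1 gene within the rule is not reported here.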

Additional observations from a re-analysis of the deposited data

Results flagged for a closer look

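The lowest or highest library of a group stood apart from the other 4 by Dixon's criterion in 5 of the 64 groups of values examined, where chance gives about 1 in 20. These were 77.8 CPM of Hk2 in room-air ventricle 4, 255 CPM of Pfkm in hyperoxic atrium 1, 495 CPM of Ldhb in room-air atrium 4, 301 CPM of Eno1 in hyperoxic ventricle 6, and the ratio Slc2a4/Slc2a1 of 4.58 in room-air atrium 5. Room-air ventricle 4 is also one of the libraries tilted towards short transcripts.

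The hyperoxia responses of 31 named genes differed between the chambers by edgeR's test of the difference itself, given here as the atrial minus the ventricular log2 difference. Of all genes tested, 36.5% were called in this comparison. Most genes outside the members were named for a small p in a hyperoxia comparison of these data, so the count is no result about them. Among the members these were Pfkm (-0.40) and Hk1 (-0.39). Among other glycolytic enzymes and transporters they were Aldoa (0.94), Eno1 (0.82), Eno2 (0.75), Gapdh (0.63), Pfkl (-0.49), Slc2a12 (-1.48) and Slc2a13 (-0.80). Eno2 passed in both chambers with the same sign, and its difference was close to the threshold (adjusted p = 0.049).

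In the control of fructose bisphosphate and pyruvate, the differences were -0.74 for Pfkfb3, -0.98 for Fbp2, -0.58 for Pdk2, 0.47 for Pdhx, -0.66 for Pdp2 and -2.0 for Pdpr. In lactate transport they were 1.57 for Emb, 0.79 for Slc16a1 and 0.67 for Bsg. In glycogen metabolism Phkg1 had -2.31, Ppp1r3a -1.27 and Gyg 0.73. In the pentose phosphate pathway Rpia had 1.15, Pgls 1.29 and Tkt 0.64. In uptake control Tbc1d1 had -0.78, Tbc1d4 -0.50, Akt2 -0.45 and Prkaa2 -0.66. Among the transcription regulators Myc had 0.96, Esrra 0.58 and Ppargc1a -0.36. The edgeR adjusted p of these differences ranged from 1.7e-06 for Phkg1 to 0.049 for Eno2. Without 1 library the adjusted p was 0.05 or more for Eno2 (any library but 3: hyperoxic atrium 5, hyperoxic ventricle 4 and room-air ventricle 1). The same held for Fbp2 without hyperoxic atrium 3, room-air atrium 5 or hyperoxic ventricle 5, for Pdhx without hyperoxic atrium 4, room-air atrium 2, hyperoxic ventricle 2 or room-air ventricle 4, and for Pdp2 without hyperoxic ventricle 5. Ppargc1a lost the call without hyperoxic atrium 1, 2 or 4, room-air atrium 3 or 5, hyperoxic ventricle 4, 5 or 6, or room-air ventricle 1, 2 or 3. Slc2a13 lost it without hyperoxic atrium 1, 2 or 4, room-air atrium 2, 3 or 5, hyperoxic ventricle 2 or 4, or room-air ventricle 2, 4 or 5.

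The isoform ratios Pfkm/Pfkp (-0.34) and Eno3/Eno1 (-0.43) passed when oxygen labels were permuted within each chamber. The null there is no oxygen effect in either chamber, so a difference between the chambers' responses was not tested by it, and Hk2/Hk1 had a larger difference (0.72) that did not pass.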

How the results depend on the processing

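Values here are members called of 10, genes called of all, or log2 differences. Hyperoxia in the atrium called 6 members, 3 with only the compared libraries or with Y-linked minus Xist reads as a covariate, and 4 to 6 without 1 library; 7291 genes became 2988 with the length slope and Y-linked minus Xist reads as covariates, and 6381 to 7761 without 1 library. In the ventricle 2 members became 4 with the length slope, 1 to 2 without 1 library (1 without hyperoxic ventricle 1, 2, 4 or 5 or room-air ventricle 1, 2 or 4), and 0 with Y-linked minus Xist reads, with both covariates, with Myl7, or without the 3 ventricular libraries that lay apart (hyperoxic 4, room-air 1 and 4). The last 2 settings were added after seeing the data. There 1813 genes became 1021 without a filter, 2792 with DESeq2, 3305 without the 3 tilted libraries, 61 with Y-linked minus Xist reads, 459 with both covariates, 115 with Myl7, 309 without those 3 ventricular libraries, and 926 to 2527 without 1 library. For the difference of responses 2 members became 4 with upper-quartile scaling, the 1 CPM filter, the length slope or both covariates, 5 with DESeq2, 1 without a filter, 0 with Myl7, and 1 to 3 without 1 library; 6060 genes became 2632 with the length slope, 2442 with both covariates and 5146 to 6645 without 1 library. The room-air chamber comparison called 6 to 7 members and 8347 to 9538 genes without 1 library, and the hyperoxic one 8 to 9 members and 7563 to 8393 genes. Without 1 library the ratios called were 3 to 4 in the atrium, 2 to 4 in the ventricle, 1 to 2 in the permutation for the difference of responses (1 without hyperoxic ventricle 4 or room-air ventricle 1 or 3), 3 to 4 in room air and 3 after hyperoxia between chambers; 5 were called in the atrium without the 3 tilted libraries. The cause of these changes was not tested.

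Signs turned in these cases. In the atrium Slc2a4 had -0.17 without the tilted libraries, -0.23 with the length slope, -0.12 with both covariates and -0.10 to 0.10 without 1 library; Pfkp 0.06 and 0.04 under the first 2 of these; Pgk1 -0.22 with both covariates; Eno3 -0.12, -0.23 and -0.31 under all 3; Ldhb -0.00043 with the length slope and -0.08 with both. In the ventricle Slc2a4 had -0.06 with Myl7 and Pfkp -0.07 with both covariates; Fbp2 had 0.07 with the length slope; with the length slope, Y-linked minus Xist reads and both, Eno3 had 0.18, 0.01 and 0.14 and Ldhb 0.24, 0.10 and 0.20. For the difference of responses, without the tilted libraries, with the length slope and with both covariates, Pfkp had 0.05, 0.10 and 0.09, Eno3 -0.07, -0.41 and -0.44, and Ldha -0.18, -0.34 and -0.38; with the last 2, Pgk1 had -0.07 and -0.17 and Ldhb -0.24 and -0.27. Between room-air chambers Slc2a4 had 0.07 with the length slope and 0.05 with both covariates, and Hk1 -0.09 with both. Ldhb/Ldha between hyperoxic chambers had -0.05 without the tilted libraries.

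The labels do not say that replicate numbers pair libraries, and not every same-numbered pair correlated: deviations of atrium and ventricle at the same oxygen level had correlations of -0.0535 to 0.575, and those of the same chamber at the other oxygen level -0.335 to 0.647. With the replicate block by number the difference of responses called 4 members, Slc2a1 and Ldhb besides Pfkm and Hk1. With the block by number within oxygen level Slc2a1 passed in the difference of responses (adjusted p = 0.0069) and between room-air chambers (0.035), as did Pgk1 there (0.016). With the exact replicate block of the same number and oxygen level 0 ratios passed in the difference of responses and in both chamber comparisons. In the chamber comparisons 5 or 4 pairs cannot go below a p of 0.0625 or 0.125. All these tests were adjusted together, so tests that could not pass raised the adjusted p of the difference of responses. At an unadjusted p under 0.05 the paired tests had 5, 0 and 0 of 5 ratios, and the block moved no count of genes by over 1.5 times.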
